A study of Saccharomyces cerevisiae with 2 samples.

Results

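In a tiling array map of histone H3 in budding yeast, 305 of 29599 nuclear coding probes, 1.03%, had a strongly positive ratio of the Cy5 channel, labelled Myc-H3 IP, over the Cy3 channel, labelled as input, on both arrays. These 305 probes, called members here, were chosen by that ratio. A member is a probe that the array annotates as inside a gene, whose log2 ratio of Cy5 over Cy3, centred on the array's median, was 0.75 or more on each array. That threshold is a 1.68-fold ratio. The members lay in 240 of the 5465 genes with a kept coding probe, 4.39%. Since the ratio chose them, their ratios are given as a description with no test.

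Strain MDY510 carries H3 with a Myc tag. Its cells were arrested with alpha factor, the pheromone that holds MATa cells in G1, without galactose induction. Sonicated chromatin was precipitated with a monoclonal anti-Myc antibody and hybridised in Cy5 against sonicated whole cell extract (WCE) in Cy3. Both arrays, replicates 1 and 2 of the only group, had the same dye orientation. No other strain and no precipitation without the tag was analysed here.

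Whether the replicates are separate cultures is not in the labels. Each array held 41775 probes for yeast sequence, and 40890 passed the spot filters. Median spot brightness was 36103 and 34487 in Cy3 and 34318 and 36699 in Cy5, and having only 2 arrays limits the precision. Mitochondrial DNA carries no histones, yet its ratio was high in the channel labelled Myc-H3 IP. The median ratio of its 230 kept probes lay 4.77 above the nuclear median on replicate 1 and 4.91 on replicate 2. The cause of this was not tested, and the channels are called by their labels only. If they were exchanged, every sign below would turn. An exact test over 2 arrays cannot go below p = 0.5, so no p-value is given.

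Nucleosomes, built of DNA wrapped around octamers of histones H2A, H2B, H3 and H4, cover most of a yeast coding region. Promoters often hold a nucleosome-depleted region before the transcription start, and highly transcribed genes can lose nucleosomes over the coding region as well. In a ChIP of H3 against input, coding probes are therefore usually the higher class. On these arrays the probes past the threshold were mostly outside genes: 758 of 5746 kept tandem promoter probes passed it, 13.2%, as did 631 of 3328 divergent promoter probes, 19%. Among probes downstream of genes 106 of 1862 passed, 5.69%. The 305 coding probes are the exceptions inside genes.

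The members' ratios lay close to the threshold, with a tail of high values. On replicate 1 the lowest was 0.75, the median 0.94 and the highest 3.59, and on replicate 2 they were 0.75, 1.0 and 3.74. The median member thus had a 1.91-fold ratio on replicate 1 and a 2.0-fold ratio on replicate 2. Other coding probes had a median of -0.06 and -0.04. Of the members 133 had a mean ratio of 1 or more, 39 of 1.5 or more, 14 of 2 or more and 1 of 3 or more. The between-array SD of a member was 0.05, against 0.04 for the other coding probes. Members were on average 0.05 higher on replicate 2, and 258 of 305 were higher there. Alone, replicate 1 put 313 coding probes past the threshold and replicate 2 put 383. The set depends on the signals used: with normexp background correction in place of the scanner's processed signals, 0 coding probes passed on both arrays. Replicate 1 then had 108 past the threshold and replicate 2 had 0. The loss was not limited to coding probes. Of promoter probes 0% passed on both arrays, against 15.3% with the processed signals. With normexp alone, the SD over coding probes was 0.21 on replicate 1 and 0.40 on replicate 2. With loess added, the SD over coding probes was 0.21 on replicate 1 and 0.04 on replicate 2, against 0.33 on each with the processed signals.

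**Figure D1:**
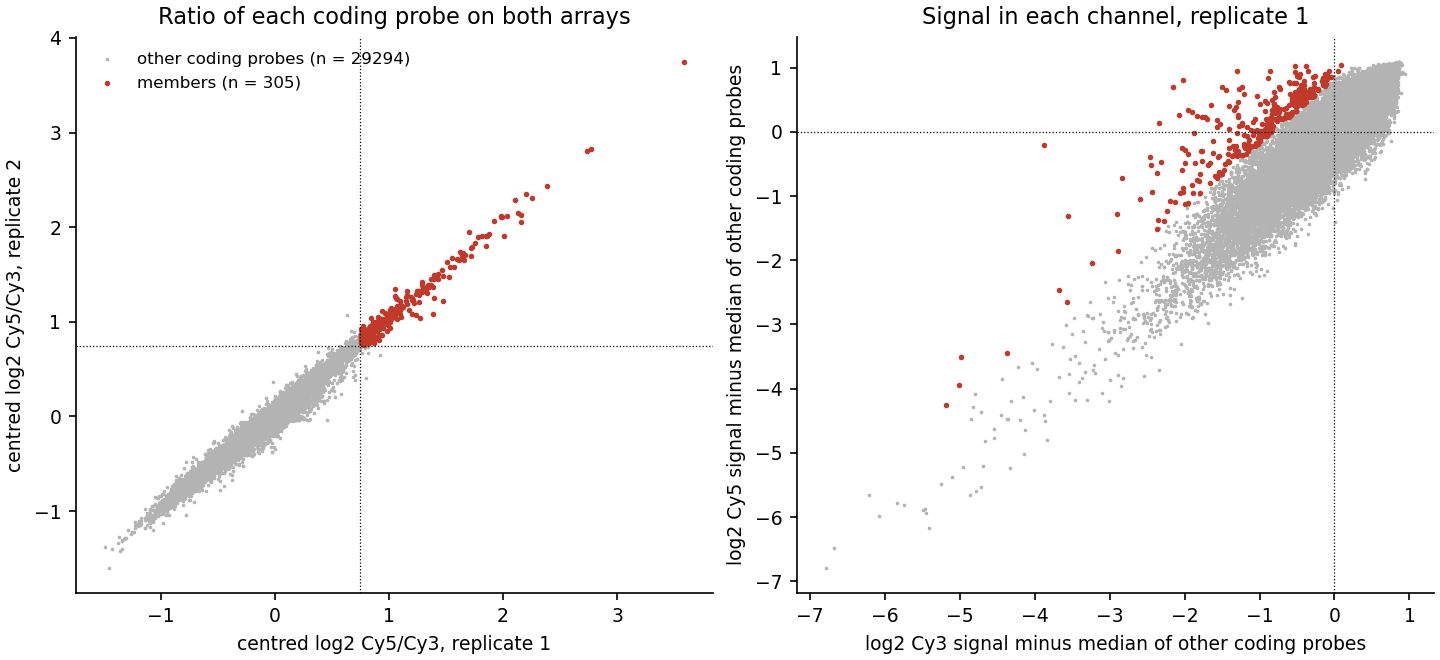
Left, the centred log2 Cy5/Cy3 ratio of each kept nuclear coding probe on replicate 1 (x) and replicate 2 (y), with dotted lines at the threshold of 0.75. Right, the log2 Cy5 signal (y) against the log2 Cy3 signal (x) on replicate 1, each minus the median of the other coding probes. Red points are the 305 members and grey points the others. Nearly all members lie left of the Cy3 median, and 198 of them lie above the Cy5 median.

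The signals of the single channels show where the members stand apart from other coding probes. In Cy3, the channel labelled WCE, a member was dimmer than the median of other coding probes by a median log2 of -0.90 on each array, and 303 members on replicate 1 and 304 on replicate 2 lay below that median. In Cy5, the channel labelled IP, the median member was higher by 0.23 and 0.27, and 198 and 199 of the 305 lay above. The middle members ranged in Cy3 from -1.43 to -0.51 on replicate 1, from lower to upper quartile, and in Cy5 from -0.22 to 0.56. A low Cy3 signal was thus seen in nearly every member and a raised Cy5 signal in 64.9% and 65.3% of them. Both signals enter the ratio that chose the members, so neither is independent of the choice. Saturation of Cy5, which compresses a ratio, was seen in 16 members on replicate 1, 5.2%, and 23 on replicate 2, 7.5%. Over all kept coding probes these shares were 6.2% and 8.8%. No member was saturated in Cy3, against 7.6% and 5.9% of kept coding probes, but the choice by ratio disfavours a bright Cy3 signal.

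The highest member was the last probe of SHR5, a gene for part of the enzyme that palmitoylates Ras proteins (chromosome 15, 109727 to 109775). Its ratio was 3.59 on replicate 1 and 3.74 on replicate 2, a 12.01-fold and a 13.4-fold ratio. Its Cy3 signal was -3.88 and -4.12 relative to the other coding probes and its Cy5 signal -0.21 and -0.34. The first SHR5 probe was a member too, with 1.85 and 1.91. The probe coordinates are those of the array files, and no label or header names their genome build.

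The next members by ratio lay in YKR041W, PHO4, RRN5 and SCS3. In YKR041W, known by its systematic name only, the middle of 3 probes had 2.77 and 2.82 (chromosome 11, 518245 to 518291). The last probe of PHO4, which encodes the activator of phosphate starvation genes, had 2.74 and 2.80 (chromosome 6, 225148 to 225192). In RRN5, which encodes part of the factor that recruits RNA polymerase I upstream of the rDNA promoter, the fourth of 5 probes had 2.39 and 2.44 (chromosome 12, 424277 to 424321). In SCS3, an endoplasmic reticulum protein of lipid metabolism, the third of 4 probes had 2.25 and 2.31 (chromosome 7, 271869 to 271913). Each of these probes was 45 or 47 nt long, shorter than the usual 60 nt of this array.

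A further 3 high members were the sole coding probes of their genes. UTR5 had 2.20 and 2.35 (chromosome 5, 85401 to 85455). YBL044W had 2.11 and 2.29 (chromosome 2, 135982 to 136041), and at 60 nt it was the only full-length probe among the 10 highest. YLR466C-B, near the right end of chromosome 12 (1071617 to 1071675), had 2.16 and 2.13 from a probe below the median of other coding probes in both channels, at -3.56 and -3.15 in Cy3 and -1.32 and -0.99 in Cy5. The last probe of RSO55 had 2.13 and 2.15 (chromosome 12, 704541 to 704585). The first probe of HSP150, a secreted cell wall protein, had 2.16 and 2.06 (chromosome 10, 120543 to 120587).

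Most genes with members held a single one. Of the 240 genes 196 held 1 member, 32 held 2 and 12 held 3 or more. Among genes with at least 2 kept coding probes, 142 held exactly 1. The other coding probes of the genes with members, 594 in all, had a median ratio of 0.13 on replicate 1 and 0.16 on replicate 2. All kept coding probes were members in 71 genes, of which 17 had at least 2 kept probes and 6 at least 3. These 6 were PDC1, RRN5, YKR041W, PHO4, HTC1 and TRP1.

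PDC1, the main pyruvate decarboxylase of fermenting cells, held the most members, 7 of 7 on chromosome 12. From first to last, its probes had 1.21, 1.03, 0.96, 0.86, 1.26, 0.85 and 0.88 on replicate 1. On replicate 2 they had 1.09, 1.05, 1.09, 0.88, 1.21, 0.89 and 0.91. The gene was thus moderately high along its whole length, with a mean of 1.01 on each array. The 4 promoter probes before it reached 1.78 and 1.83, above every coding probe of the gene.

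RRN5 formed a peak within its coding region. Its 5 probes had 0.86, 1.29, 1.76, 2.39 and 1.57 on replicate 1 and 0.91, 1.43, 1.84, 2.44 and 1.58 on replicate 2. The highest probe was the fourth on both arrays. In PUT4, the proline permease on chromosome 15, 5 of 6 probes were members. They had 1.73, 1.99, 1.35, 1.92, 0.99 and 0.44 from first to last on replicate 1, and 1.79, 2.11, 1.37, 2.06, 1.05 and 0.51 on replicate 2, so that the last probe alone stayed under the threshold.

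Like PDC1, PHO4 and its neighbours held 7 consecutive members with no noncoding probe between them. The 7 probes comprised 2 of QCR6, a subunit of the cytochrome bc1 complex, the 3 of PHO4 and 2 of YFR035C on chromosome 6. The PHO4 probes had 0.98, 1.19 and 2.74 on replicate 1 and 1.02, 1.26 and 2.80 on replicate 2. Outside PHO4 the run was lower, from 0.88 to 0.94 on replicate 1 and from 0.84 to 1.02 on replicate 2. The next probe, the last of QCR6, was at -0.07 and -0.03.

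TRP1, the phosphoribosylanthranilate isomerase of tryptophan synthesis, was high within sharp limits. Its 3 probes on chromosome 4 had 0.99, 1.22 and 0.94 on replicate 1 and 1.03, 1.20 and 0.97 on replicate 2. The nearest probe before the gene had 0.34 and 0.31, and the nearest after it, in the GAL3 promoter, had 0.20 and 0.25. In HTC1 on chromosome 16 the 3 probes had 1.38, 1.43 and 1.99 on replicate 1 and 1.09, 1.46 and 2.11 on replicate 2. YKR041W had 1.87, 2.77 and 2.04 on replicate 1 and 1.92, 2.82 and 2.11 on replicate 2. Beyond YKR041W the promoter probe of UTH1 still had 1.11 and 1.13, and the first UTH1 coding probe fell to 0.04 and -0.04.

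**Figure D2:**
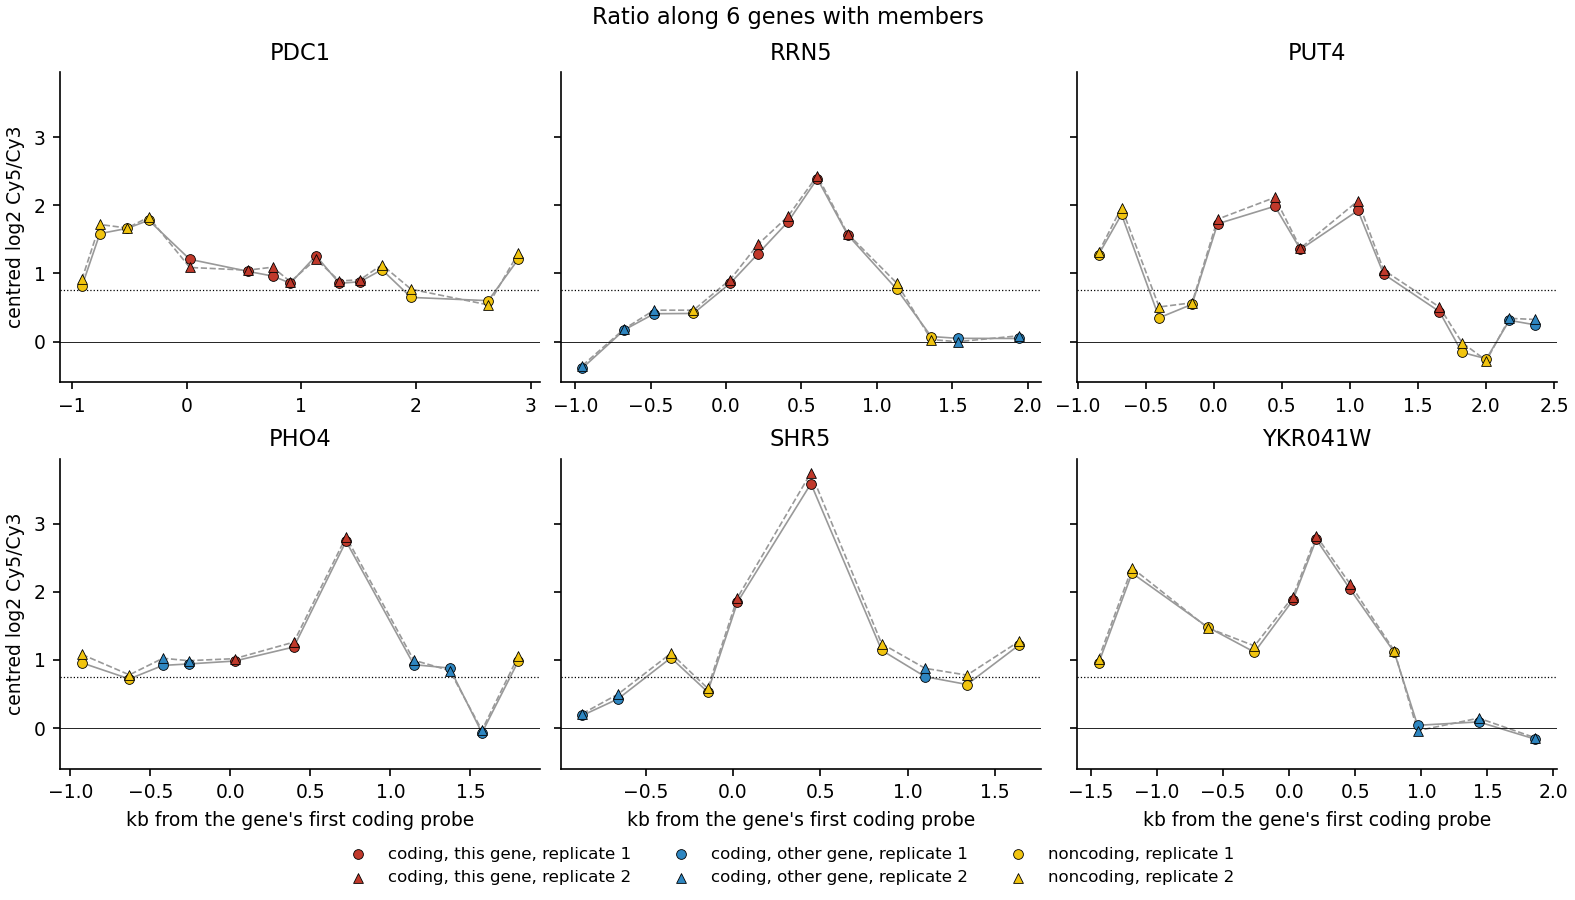
Centred log2 Cy5/Cy3 ratio (y) of each kept probe along PDC1, RRN5, PUT4, PHO4, SHR5 and YKR041W and 4 probes on each side, against the distance in kb from the start of the gene's first coding probe in the direction of the gene (x). Red marks coding probes of the named gene, blue those of other genes and yellow noncoding probes; circles are replicate 1, triangles replicate 2, and the dotted line is the threshold of 0.75. The arrays nearly coincide, PDC1 is a plateau that starts below its promoter, and RRN5, PHO4 and SHR5 each have a peak inside the gene.

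In several genes the members filled one part only. YAT1, the carnitine acetyltransferase of the outer mitochondrial membrane, had 8 probes on chromosome 1. Its first 4 were below the threshold on at least 1 array, at 0.62, 0.66, 0.25 and -0.14 on replicate 1 and 0.73, 0.90, 0.27 and -0.06 on replicate 2. Its last 4 were members, at 1.21, 1.30, 0.91 and 0.96 on replicate 1 and 1.24, 1.35, 0.94 and 1.0 on replicate 2. The second probe was past the threshold on replicate 2 alone, about level there with the members of the gene's end. The probe after the gene had 0.29 and 0.08.

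NAT4, the acetyltransferase of the N termini of histones H4 and H2A, had its 2 members at the end of the gene. Its 4 probes had 0.42, 0.40, 1.62 and 2.01 on replicate 1 and 0.46, 0.47, 1.66 and 1.91 on replicate 2. SCS3 had 3 members and its highest probe was the third, with 0.34, 0.77, 2.25 and 1.78 on replicate 1 and 0.38, 0.95, 2.31 and 1.90 on replicate 2. PTK1, a protein kinase of polyamine uptake, had 0.51, 1.07, 1.37 and 0.76 on replicate 1 and 0.55, 1.03, 1.39 and 0.82 on replicate 2, with all but the first as members. In these genes the first probe was below the threshold on both arrays.

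ALD6, the cytosolic acetaldehyde dehydrogenase, lay behind a promoter of 2.44 and 2.51 at its highest. Its 5 coding probes had 0.49, 0.81, 0.91, 0.60 and 0.80 on replicate 1 and 0.68, 0.89, 0.92, 0.72 and 0.84 on replicate 2, with the second, the third and the fifth as members. IMP2', an activator of sugar utilisation genes, had 3 members among 4 probes. In chromosome order these had 1.26, 1.39, 0.10 and 0.91 on replicate 1 and 1.33, 1.37, 0.23 and 0.81 on replicate 2, and the third probe was not a member. The strand of IMP2' was not matched here, so its probes have no first or last. Both kept coding probes of HSP150 were members, with 2.16 and 1.64 on replicate 1 and 2.06 and 1.70 on replicate 2.

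Within genes, the members sat at the ends. Counted in the direction of the gene, 95 were the first coding probe of a gene with several, 99 the last and 56 an inner probe, and 52 were the sole coding probe of their gene. Another 3 were of unknown strand. First probes made 31.1% of members and 16.6% of all kept coding probes, and last probes 32.5% against 16.5%. Inner probes made 18.4% against 65.1%, and sole probes 17.05% against 1.51%. Read the other way, 1.94% of first, 2.02% of last, 0.29% of inner and 11.7% of sole probes were members. The shares of first and last probes lay close together, and both were above that of inner probes. The median ratio of members was 0.92 for first, 0.96 for last, 1.03 for inner and 1.07 for sole probes.

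Members were least frequent at inner positions in each of the 3 classes of gene size. In genes with 2 to 4 coding probes 3.07% of first, 0.92% of inner and 2.85% of last probes were members. With 5 to 7 probes these were 1.33%, 0.41% and 1.52%, and with 8 or more 0.59%, 0.10% and 1.11%. The shares thus fell with gene length at all 3 positions. Genes with 2 coding probes have no inner probe, and 4.80% of their kept coding probes were members. They thus raise only the first and last shares of the smallest class. The gene of a member had a median of 3 coding probes, against 7 for the gene of another coding probe. Genes with at most 3 coding probes held 164 members, 53.8%, against 14.1% of all kept coding probes. Of the genes with 1 coding probe 11.6% held a member, and of those with 8 to 10 probes 2.27%. A gene of 11 to 59 probes offers more chances of a member, yet 9 of 546 held one, 1.65%.

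**Figure D3:**
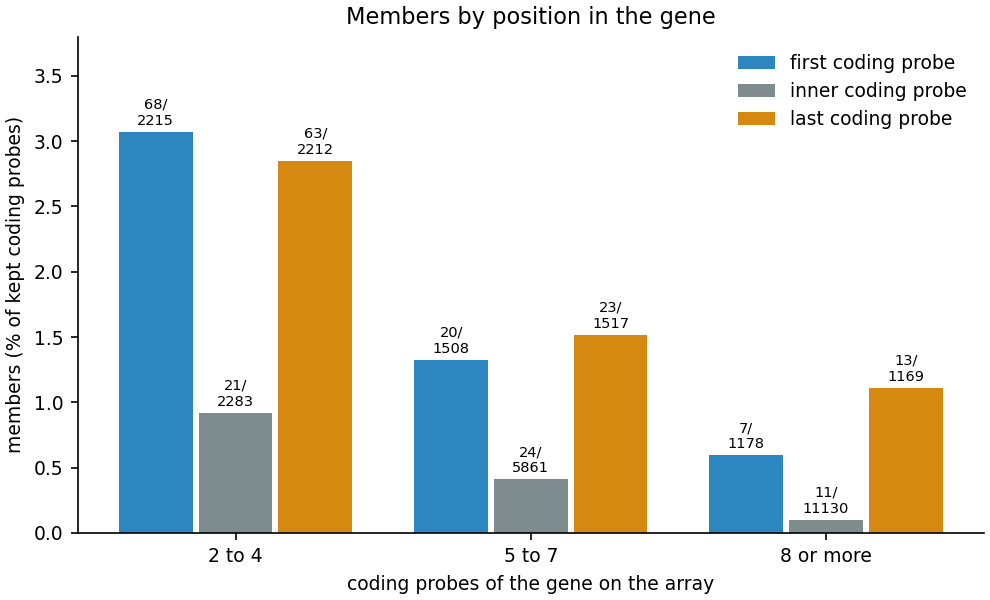
Members as a percentage of kept coding probes (y) at the first, inner and last positions of a gene, by the number of coding probes that the gene has on the array (x). The numbers above the bars are members and kept probes. At each gene size the inner bar is the lowest, from 0.92% in genes of 2 to 4 probes to 0.10% in genes of 8 or more. Genes of 2 probes have no inner probe and enter only the first and last bars.

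The frequency of members at gene ends differed with what lay beyond the gene. Last probes were members in 3.46% of cases (69 of 1996) where the next kept probe lay in the tandem promoter of the following gene. The share was 1.21% (19 of 1575) where it lay in a downstream region, which has no promoter annotated, and 0.76% (10 of 1317) where it was another gene's coding probe. First probes were members in 2.20% of cases behind a divergent promoter (50 of 2274) in 1.58% behind a tandem promoter (35 of 2217) and in 2.22% behind another gene's coding probe (9 of 405). For first probes the share was thus not higher next to promoters than next to coding probes. Sole probes were members in 13.5% of cases behind a divergent promoter (27 of 200) and in 16.8% in front of a tandem promoter (32 of 191).

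The ratio of the flanking probe moved with membership, whether that probe lay in a promoter or in a gene. Where the tandem promoter probe after a last probe was past the threshold on both arrays, 26.1% of the last probes were members, and where it was not, 1.57%. For first probes these shares were 12.1% and 0.64% with a tandem promoter probe before them, and 10.7% and 1.31% with a divergent one. With a coding probe as the neighbour they were 25% and 1.53% for first probes and 30% and 0.54% for last probes, and 33.3% and 0.14% for inner probes by the coding probe before them. Neighbouring probes sample sonicated fragments that overlap, so they are not independent measurements. The part of fragment length in these shares was not tested.

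Of the members 204, or 66.9%, lay next to at least 1 other probe past the threshold, against 3.21% of all kept coding probes. The 305 members fell into 234 runs. In 121 runs with promoter or downstream probes lay 167 members, with a median ratio of 1.01 on replicate 1 and 1.05 on replicate 2. Another 37 members lay in 12 runs of coding probes alone, with medians of 0.99 and 1.02. The remaining 101 stood alone and were lower, with medians of 0.84 and 0.89. Their 202 flanking probes had a median ratio of 0.36, against -0.04 for all kept coding probes. At 60 nt, tandem promoter probes had a median of 0.15 and divergent ones of 0.28.

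The 12 runs of coding probes alone were those of PHO4 with its neighbours, PUT4, YAT1, SCS3, HTC1, TRP1, NAT4, the ribosomal protein genes RPS4A and RPL15A, ALD6, RNA15 of mRNA 3' end processing, and THO1, an RNA-binding protein of nuclear mRNA particles. By definition, neither these runs nor the members that stood alone had a noncoding probe past the threshold on both arrays beside them. Of the 37 probes in the runs of coding probes alone, 73.0% were shorter than 60 nt and 35.1% were 50 nt or shorter. These shares were 62.3% and 13.8% in runs with noncoding probes and 53.5% and 10.9% among members that stood alone. Over all kept coding probes they were 35.2% and 1.03%.

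The longest run of high probes covered PDC1. Its 12 probes reached from 232271 to 234947 on chromosome 12, 2677 bp, with 1 TRX1 promoter probe, the 7 coding probes and 4 probes of the PDC1 promoter. Its ratios lay between 0.81 and 1.78 on replicate 1 and between 0.88 and 1.83 on replicate 2. The next run had 11 probes over 2177 bp of chromosome 1, from 69346 to 71522, and joined the first coding probe of CYC3, the cytochrome c heme lyase, to the divergent promoter that it shares with CDC19, the pyruvate kinase gene. The CYC3 probe was the lowest of that run on both arrays, at 0.76 and 0.85. The run at CWP2 and CWP1, genes of cell wall mannoproteins on chromosome 11, had 9 probes from 258498 to 260595, with means of 1.35 and 1.40. It held the sole coding probes of YKL096C-B, at 1.33 and 1.31, and of CWP2, at 1.53 and 1.47.

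The roles of the genes were described over 13 lists, which hold 61 of the 240 genes. Of the glycolysis and fermentation genes 11 of 25 held a member, 44.0%, against 4.39% of all genes. These genes had a median of 5 coding probes, as all genes did, and their coding probes had a median ratio of 0.15, against -0.04 over all kept coding probes. Besides PDC1, the glyceraldehyde-3-phosphate dehydrogenase gene TDH3 had both its probes as members, with a mean of 1.25 on replicate 1 and 1.31 on replicate 2. The members of PGK1, phosphoglycerate kinase, were its first and second of 6 probes, at 0.86 and 0.85 on replicate 1 and 0.90 and 0.91 on replicate 2. Those of the enolase gene ENO2 had a mean of 0.82 and 0.86. The other members of this list, in GPM1, PGI1, TDH2, PDC6, ENO1, FBA1 and ADH1, were 1 a gene and lay between 0.75 and 1.10 on replicate 1. The count of 11 genes was 6 when arrays were centred on their mode and 2 with 60-nt probes only. Near-identical pairs such as TDH2 and TDH3 can share hybridisation, which was not tested.

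Ribosomal protein genes held a member in 19 of 127 cases, 14.96%, and in 31 on replicate 2 alone. They had a median of 2 coding probes, and their coding probes had a median ratio of 0.30. RPS4A had 2 members of 3 probes with a mean of 0.98 and 1.0, and RPL15A 2 of 2 with 0.92 and 0.97. The highest member among them was the first probe of RPL38, at 1.26 and 1.28. Most of the others were near the threshold, down to RPS24A at 0.75 and 0.78. Of all genes with 2 coding probes 8.01% held a member, and of those with 1 coding probe 11.6%.

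Cell wall genes held a member in 8 of 52 cases, 15.4%. The count was 5 at a threshold of 1 and 2 with 60-nt probes only, and the median ratio of the list's coding probes was -0.03. HSP150 and CCW12, a mannoprotein of the cell wall, were the highest, and the sole CCW12 probe had 1.82 and 1.91. SED1, a major wall glycoprotein of stationary cells, had its first and last probes of 5 as members. It had 0.99, -0.31, 0.07, 0.45 and 0.94 along the gene on replicate 1 and 0.97, -0.31, 0.13, 0.55 and 0.96 on replicate 2. Its ends were therefore above the threshold and its inside was not. Promoter probes of SED1 reached 3.21 and 3.34.

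Of the pheromone response genes 7 of 39 held a member, 17.9%, in cells that were under alpha factor. The coding probes of the whole list had a median ratio of -0.07, below the -0.04 of all kept coding probes, and with 60-nt probes only 4 genes held a member. AGA1, the anchor subunit of the a-agglutinin of mating cells, had members in its first and second of 8 probes. They had 1.66 and 1.18 on replicate 1 and 1.65 and 1.12 on replicate 2, and its other 6 probes lay between -0.21 and 0.72 on replicate 1 and between -0.04 and 0.63 on replicate 2. The sole probe of AGA2, the adhesion subunit, had 1.40 and 1.5. The first probe of KAR5, of nuclear fusion, had 1.34 and 1.39 and stood alone. BAR1, the protease that degrades alpha factor, had a member at 1.13 and 1.16, but all 5 of its kept coding probes lay far below the median signal of other coding probes in both channels, from -5.84 to -3.67 in Cy3 and from -5.77 to -2.47 in Cy5 on replicate 1. Their ratios ranged from -0.58 to 1.13 there.

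Oxidative phosphorylation genes held a member in 6 of 35 cases, 17.1%, with a median of 2 coding probes a gene and a median coding ratio of 0.19. The count was 3 when arrays were centred on their mode and 0 at a threshold of 1. QCR6 had 2, with a mean of 0.90 and 0.92, and the first of 8 probes of SDH1, the flavoprotein of succinate dehydrogenase, had 0.86 and 0.98. ATP17, an ATP synthase subunit, had 0.82 and 0.86. Of the phosphate genes 3 of 25 held one, 12%. Beside PHO4, the first of 8 probes of the phosphate transporter gene PHO87 had 1.20 and 1.26, and the last of 4 probes of PHO85, a cyclin-dependent kinase that acts on Pho4, had 0.92 and 0.99.

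The list of core histones and variants also included the linker histone gene HHO1. Of its 7 genes with a kept coding probe 2 held a member, 28.6%, against 4.39% of all genes. Its genes had a median of 1 coding probe, and their coding probes had a median ratio of 0.43. Of all genes with 1 coding probe 11.6% held a member. The sole kept probe of HTA1, an H2A gene, had 1.05 and 1.10, and the first of 2 probes of the linker histone gene HHO1 had 0.85 and 0.84. The H3 genes HHT1 (0.53 and 0.54) and HHT2 (0.30 and 0.18) had 1 kept coding probe each and no member. In the RNA polymerase, meiosis and chaperone lists the share of genes with a member was near the 4.39% of all genes. Of 37 RNA polymerase genes 2 held one, 5.4%, namely RRN5 and RPB11 (1.10 and 1.16). Of 44 meiosis and sporulation genes 2 did, 4.5%, namely DIT2 (1.01 and 1.03) and MEI4 (0.86 and 1.0). Of 28 chaperone genes 1 did, 3.6%, AHA1, an activator of Hsp90 (1.47 and 1.48). None of 15 hexose transporter, 33 proteasome and 31 translation factor genes held one. At a share of 4.39% over all genes, lists of this size are too small to read a lack of members from that.

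**Figure D4:**
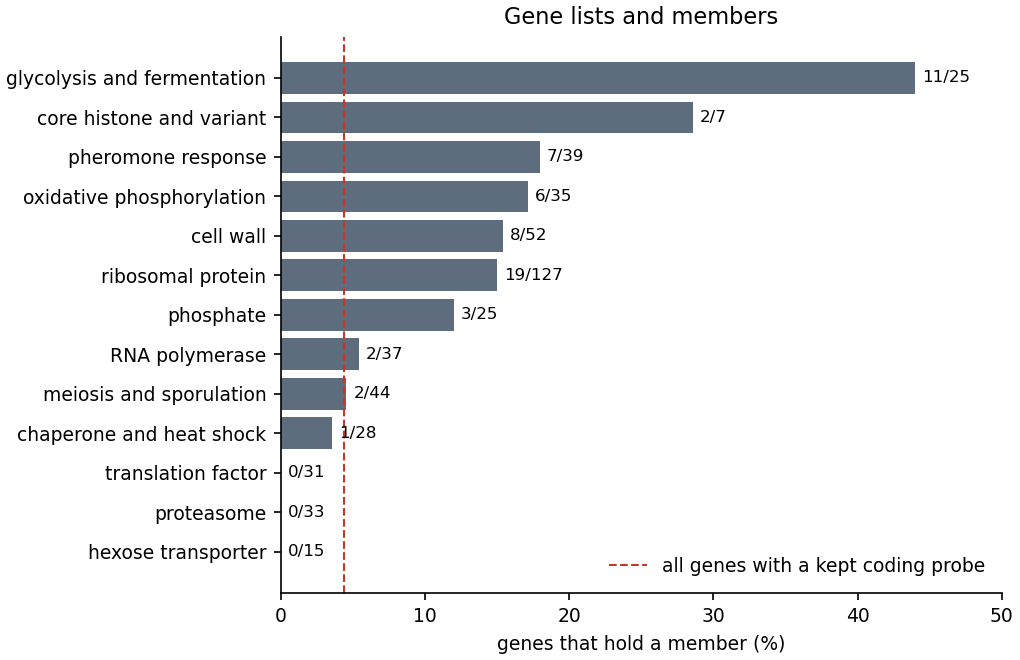
Percentage of the genes of each of 13 lists that hold at least 1 member (x), with the number of genes with a member and of genes measured beside each bar. The dashed line is the share over all 5465 genes, 4.39%. The glycolysis and fermentation list is highest with 11 of 25 genes, and 3 lists have no gene with a member.

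Probe length moved with membership. The array's probes are at most 60 nt long, and members had a median of 58 nt, against 60 nt for other coding probes. Of 70 coding probes of 45 nt, 17 were members, 24.3%. The share was 12.8% at 46 to 50 nt (30 of 235), 4.38% at 51 to 55 nt (54 of 1233), 0.95% at 56 to 59 nt (84 of 8885) and 0.63% at 60 nt (120 of 19176). Of all kept coding probes 35.2% were under 60 nt, and of all members 60.7%. High members were mostly short: 33 of the 39 members with a mean ratio of 1.5 or more, and 13 of the 14 with 2 or more, were under 60 nt. The trend was not limited to genes, since the share of high probes in divergent promoters was 51.5% at 51 to 55 nt and 15.7% at 60 nt. The median Cy3 signal of coding probes of 45 nt lay at -0.63 and -0.55 relative to the coding median, and their Cy5 signal at 0.17 and 0.29.

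**Figure D5:**
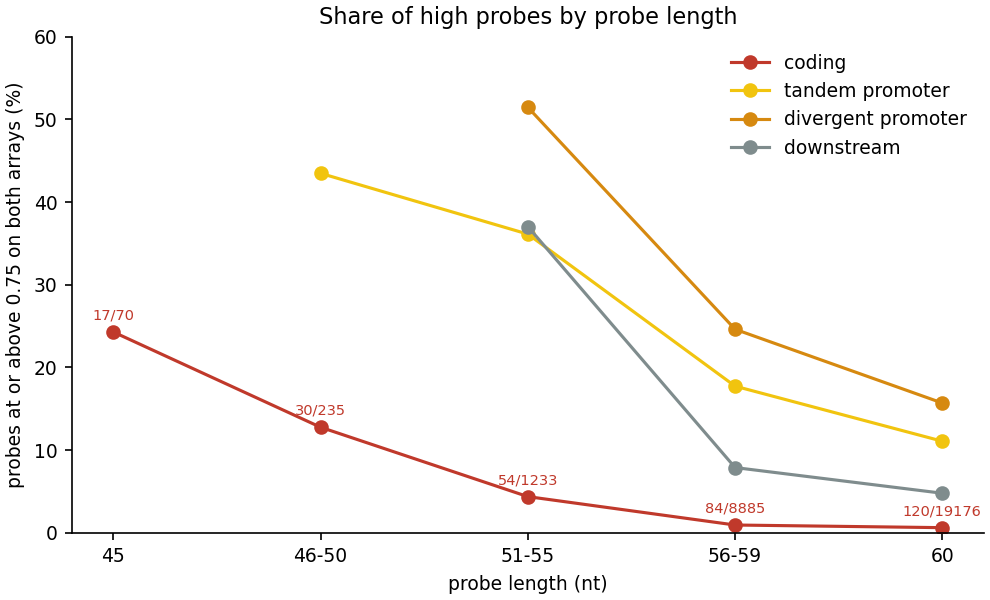
Percentage of kept probes at or above 0.75 on both arrays (y) by probe length in nt (x) for coding, tandem promoter, divergent promoter and downstream probes, with high and kept coding probes printed as numbers; bins of other classes with few probes are not drawn. In all 4 classes the share falls as the probe gets longer, for coding probes from 24.3% at 45 nt to 0.63% at 60 nt.

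Among full-length probes, too, inner probes had the lowest share and sole probes the highest, while first probes were above last ones. At 60 nt, 1.45% of first, 0.14% of inner, 1.10% of last and 9.05% of sole coding probes were members, and under 60 nt these shares were 2.74%, 0.57%, 3.73% and 15.1%. The part of probe length or base composition in the members' ratios was not tested, and the probe sequences were not used here. Among the genes described above, those with 60-nt members included AGA1, SED1 at its first probe, YBL044W, PHO87, KAR5 and BAR1. The BAR1 ratio came from signals far below the median of other coding probes in both channels. The second probe of PHO4, the third of TRP1 and of ALD6 and the last of PTK1 were 60-nt members too. The highest probes of SHR5, YKR041W, PHO4, RRN5 and SCS3 were of 45 to 49 nt.

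The threshold cut through a continuous range of values. The members nearest to it lay in THO1 (0.78 and 0.75), in the aldolase gene FBA1 (0.75 and 0.85) and in GIC2, an effector of Cdc42 (0.75 and 0.85). The nearest coding probes below it lay in RPS15, PYP1 and EDC2, which had 0.75 on replicate 1 and 0.77, 0.83 and 0.78 on replicate 2. No gap in the ratios set the members apart from the other coding probes at the threshold.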

How the data were processed

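Sonicated chromatin was amplified linearly from up to 75 ng, and 3 µg of amplified RNA were labelled, per the labels' protocols. Spot intensity values came from Agilent Feature Extraction 9.1.3.1 on design 014810, per the file headers. Log2 values in the authors' deposited table differed from the ratio of processed signals by at most 5.0e-06 over 41775 probes per array. From each array's log2 ratio of processed Cy5 over Cy3, the median over probes that are no controls was subtracted here. Kept probes were well above background in Cy3 and had no non-uniformity or population outlier flag on either array. Probe classes came from the array's annotation. Gene direction came from R64 locus tags, by which 5332 genes matched by name, 113 by synonym and 20 not at all. No source used here gives the genome build.

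The members and gene lists were chosen with earlier results of these data known. Named genes are the 15 with most members, those of the 10 highest members, those with 3 or more kept probes all members, up to 3 per list, the 3 probes on each side of the threshold and the 3 longest runs; others are named where a count or run asked for them. Alternatives used limma 3.58.1 in R 4.3.3, with pandas 2.3.3 in Python 3.11.15 for the rest. Counting was checked on simulated data.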

Additional observations from a re-analysis of the deposited data

How the results depend on the processing

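With normexp background correction (offset 50), and with normexp and loess, no coding and no promoter probe passed 0.75 on both arrays. There were thus 0 members and 0 genes. Replicate 1 alone then had 108 and 112 coding probes past it and replicate 2 had 0. In an alternative chosen after seeing the data, taking 305 coding probes by summed rank, 220 members were among them under normexp and 162 with loess added. A threshold of 0.5 gave 884 members in 688 genes, with 64.48% next to a high probe, 36.99% first and 24.1% inner probes. A threshold of 1 gave 123 in 94 genes, with 69.11%, 22.76% and 21.95%. With 60-nt probes only there were 120 in 116 genes, with 49.17%, 36.67% and 15%. Without saturated probes 281 members remained, of which 65.48% were next to a high probe. Centred on the mode there were 238 members, with 28.57% first and 19.33% inner probes. The rule on a single array gave 313 to 383 members in 246 to 303 genes, with 65.8% to 66.45% next to a high probe, 30.99% to 33.94% first and 18.53% to 19.58% inner. In every setting with members, inner probes were a smaller share of members than of coding probes. Of 130 values of list genes, 80 stayed within 1.5 times or did not change. These include values of lists without a member that stayed at 0. Glycolysis and fermentation genes with a member went from 11 to 6 on the mode, 3 at a threshold of 1 and 2 with 60-nt probes. Ribosomal protein genes went from 19 to 12, 6 and 5, and to 31 without replicate 1. Cell wall genes went from 8 to 5 at a threshold of 1 and 2 with 60-nt probes, pheromone response genes from 7 to 4 with 60-nt probes, and oxidative phosphorylation genes from 6 to 3 on the mode and 0 at a threshold of 1. The cause of these shifts was not tested. The planned check of GC content was not run. No paired analysis was possible because both arrays belong to 1 group. Of the members 7 of 305, 2.30%, were more than 2 below the coding median on the log2 scale in both channels on both arrays. The share of other coding probes was lower, at 0.93%. Members that dim in Cy3 alone were not counted.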

Other observations

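The members were spread over all 16 nuclear chromosomes, in shares of kept coding probes from 0.68% on chromosome 3 to 1.95% on chromosome 6. Chromosomes 12 and 7 held the most, with 41 and 40. Within 20 kb of a chromosome end lay 574 kept coding probes. Of these, 2 were members, 0.35%, against 1.03% of all kept coding probes. They were those of YLR466C-B and of ARR1, the regulator of arsenic resistance genes. Of the 417 genes next to a tRNA gene 30 held a member, 7.19%, against 4.16% of the other genes. Of 413 genes with a systematic name only, whose median was 3 coding probes, 30 held one, 7.26% against 4.16%.

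Members more than 2 below the median of other coding probes, on the log2 scale, in both channels on both arrays lay in ADY4, BAR1, FTH1, MTC3, OCT1, RIB5 and YBR196C-A. The first of 6 probes of ADY4, a meiotic spindle pole body component, had a ratio of 1.40 and 1.25 from signals of -4.98 and -5.03 in Cy3 and -3.50 and -3.74 in Cy5.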
